A study of Drosophila melanogaster with 30 samples.

Results

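Knockdown of dom, which encodes an ATP-dependent chromatin remodeller, was compared directly with knockdown of Spt6, which encodes a histone chaperone, in nuclear RNA of outer photoreceptors from male Drosophila melanogaster. The libraries were chosen by their titles, which name 3 dom shRNA and 3 Spt6 shRNA libraries, so 6 of the 30 libraries of the series carried the contrast. The 3 LexA shRNA libraries gave the differences that dom and Spt6 share against a control, and the 21 libraries of 7 other knockdowns (Spt5, Cdk12, TH1, Taf1, Top1, Trl and cnc) served as a further reference. Per the labels, all flies carried Rh1-GFPKASH, which tags the nuclear envelope, and Rh1-Gal4, which drove sh-dom, an Spt6 hairpin or, as control, a hairpin to the bacterial LexA sequence. Flies were sampled at day 30 after rearing at 25 C under 12 h of light and 12 h of dark. The Rh1 (ninaE) promoter is active in outer photoreceptors, so the driver restricts the hairpin to them. The genotype labels of the Spt6 group name sh-Spt6, sh-Spt7 and sh-Spt8 in turn, and groups were therefore taken from the titles. Nothing in the labels says whether replicates came from separate crosses, so p-values measure the spread between these libraries.

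Dom belongs to the SNF2 family of ATPases and exchanges the histone variant H2Av in nucleosomes as part of the Domino and Tip60 complexes. Spt6 travels with elongating RNA polymerase II and puts histones back behind it. Both therefore act on nucleosomes at transcribed genes, the first by exchange of histones and the second by their reassembly, and the direct contrast asks where nuclear RNA differs between the loss of one and the loss of the other.

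The dom libraries held 8585176, 13722049 and 11629427 gene counts, and those of Spt6 held 5334666, 14103098 and 15842337. In both groups replicate 1 stood apart. Reads outside annotated features came to 122 per 100 gene counts in dom replicate 1 and to 108 in Spt6 replicate 1, against 62.7 to 71.7 in the other 4 libraries and 79.3 to 92.4 in LexA. Differences between the 2 first replicates and between the 4 others are therefore given beside the main results. Levels are in CPM, which relates each count to the library's gene counts after scaling by the trimmed mean of M values, and are not compared between genes.

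The targeted genes did not separate the groups. Dom RNA stood at 242, 362 and 366 CPM in the dom libraries, 335, 360 and 382 CPM in Spt6 and 370, 348 and 366 CPM in the LexA libraries. Its log2 fold change of dom minus Spt6 was -0.15 (SE 0.2, adjusted p 0.64, edgeR). Spt6 RNA stood at 74.5, 126 and 121 CPM in dom, 105, 140 and 144 CPM in Spt6 and 125, 128 and 106 CPM in LexA (-0.28, SE 0.21, adjusted p 0.41). The groups overlapped for both targets, so the labels could not be checked by them. Protein was not measured.

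ninaE, which encodes the rhodopsin of outer photoreceptors, stood at 14810, 16580 and 15130 CPM in dom and 13490, 15370 and 17190 CPM in Spt6 (log2 fold change 0.01, SE 0.2, adjusted p 0.97). The rhodopsins of inner photoreceptors were present as well and were not called. Rh3 stood at 96.4, 178 and 166 CPM in dom and reached 201 CPM in Spt6 (-0.1, SE 0.31, adjusted p 0.85). Of the markers listed for glia, muscle, fat body and other cell types, none was at 0 in all libraries of a group.

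The contrast called genes in both directions. Of 14888 genes tested, 719 were higher in dom than in Spt6 (4.83% of those tested) and 872 were lower (5.86%), at a Benjamini-Hochberg adjusted p under 0.05 in edgeR's quasi-likelihood test. The groups did not overlap at 1538 of these 1591 genes, 679 of them higher and 859 lower. The calls rest on the same libraries, so such separation is partly built in, and its share over all genes tested is not given. Genes called higher moved further: their median log2 fold change was 1.62, and 280 of them differed by more than 4-fold. Genes called lower had a median of -0.88, and 35 differed by more than 4-fold. The median over all genes tested was 0.28, rather than 0, and it ran from 1.28 in the fifth of genes with the lowest level to -0.23 in the fifth with the highest.

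The direction held within the background classes. Between the 2 first replicates, 713 of the 719 higher genes and 872 of the 872 lower genes kept their sign, with medians of 1.3 and -0.88. Between the 4 other libraries, the sign held at 719 and 872 genes, with medians of 1.64 and -0.87. Genes were chosen on these same libraries, so the counts describe evenness between libraries and are no test. The number called depended on single libraries. It was 3300 without Spt6 replicate 1, 890 without Spt6 replicate 2 and 593 without Spt6 replicate 3, and it was 1059 and 931 without dom replicates 1 and 3.

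**Figure D1:**
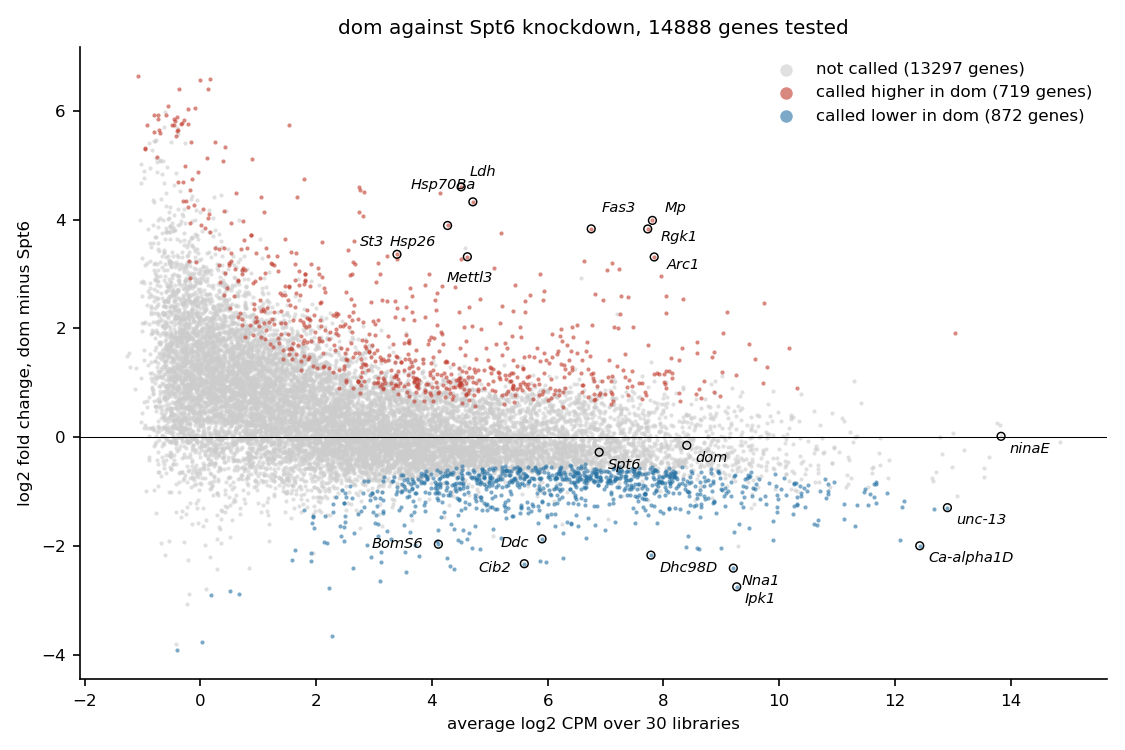
Log2 fold change of dom minus Spt6 (vertical axis) against average log2 CPM over 30 libraries (horizontal axis), 1 point per gene, coloured by the call at an adjusted p under 0.05. The 719 genes called higher spread up to beyond 4 on the log2 scale, the 872 genes called lower lie mostly at high levels, and the targets dom and Spt6 and the rhodopsin ninaE sit near 0.

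To see which of the 2 groups departed from libraries outside the contrast, each other group was placed on a scale on which Spt6 is 0 and dom is 1, gene by gene, from mean log2 CPM. LexA had a median position of 0.107 over the 1591 genes, and it lay nearer to Spt6 than to dom at 1412 of them (88.8%). The 3 LexA libraries taken singly stood at 0.113, -0.019 and 0.203. Taf1 stood at -0.005, cnc at 0.097, Cdk12 at 0.198, TH1 at 0.259 and Top1 at 0.287. Spt5 and Trl lay between the 2 groups, at 0.443 and 0.549. Trl was placed nearer to dom at the genes lower in dom (0.651) than at the genes higher in dom (0.247). Since the genes were selected for a difference between dom and Spt6, positions are a description without a test. Without Spt6 replicate 1 the position of LexA was 0.41, over the 3268 called genes with a position.

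**Figure D2:**
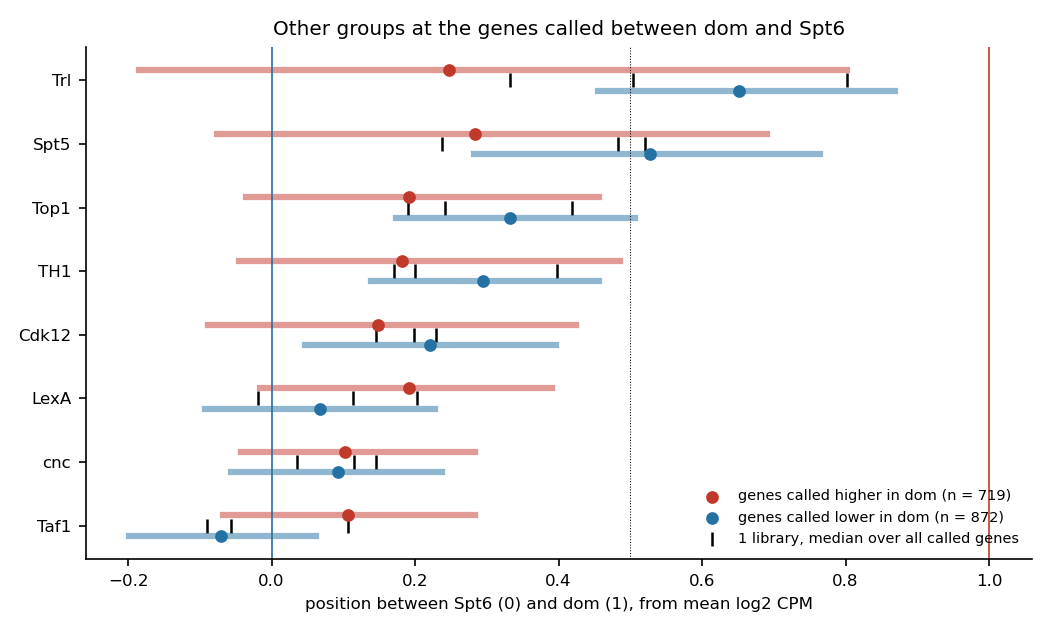
Position of each other group between Spt6 (0) and dom (1) at the genes called between them. Dots are medians and bars quartile ranges over genes called higher (red) or lower (blue) in dom, and ticks are single libraries over all called genes. Taf1, cnc and LexA sit near Spt6, and Trl and Spt5 sit midway.

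Sides were then counted, by a rule made after the values were seen. At 1307 of the 1591 genes (82.1%) both LexA and the mean of 6 other knockdowns (TH1, Taf1, Top1, Trl, cnc and Cdk12) lay nearer to Spt6, so that dom was the group that stood away. At 121 genes both lay nearer to dom, and 163 genes were split. All 3 dom libraries lay above each of the 27 other libraries at 301 of the genes called higher, and below each of them at 97 of the genes called lower. Spt6 libraries lay above all 27 others at 8 of the genes called lower and below them at 2 of the genes called higher. Each group's own comparisons had matching sizes. Dom minus LexA called 650 genes higher (4.37%) and 893 lower (6.0%), while Spt6 minus LexA called 10 higher (0.0672%) and 6 lower (0.0403%). Against the mean of the 6 other knockdowns, dom had 1204 genes higher (8.09%) and 839 lower (5.64%), and Spt6 had 66 higher (0.443%) and 12 lower (0.0806%). At an unadjusted p under 0.05, Spt6 minus LexA held 1095 genes and dom minus LexA 3443. The comparisons with LexA share their control libraries, as do those with the 6 knockdowns.

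The gene with the largest difference by the naming rule (called, groups apart and an average of at least 3 on the log2 CPM scale) was Ldh (chromosome 3L, 6259105 to 6262694), lactate dehydrogenase, which interconverts pyruvate and lactate. It stood at 128, 180 and 139 CPM in dom, 11.9, 3.19 and 4.29 CPM in Spt6 and 4.87, 5.14 and 7.1 CPM in LexA. All dom libraries lay far above the rest, including the 24 libraries of the other 8 groups, which reached 18.9 CPM. The log2 fold change of dom minus Spt6 was 4.6 (SE 0.47, adjusted p 1.57e-07). Ald1, an aldolase of glycolysis, was the only other called gene among 14 glycolysis genes tested, at 542, 887 and 784 CPM against 310, 446 and 324 CPM (1.03, SE 0.3, adjusted p 0.023). The call of Ald1 was lost without Spt6 replicate 3 or dom replicate 2 (highest adjusted p 0.126), and with both first replicates left out (0.0712). The median over the glycolysis list was 0.33, close to that of all genes.

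Of the 10 largest increases by that rule, the heat shock genes are described further on, and 6 others follow here. Rgk1 (2R, 19311148 to 19356525), a small GTPase of the Rad and Gem family, stood at 916, 1429 and 1126 CPM in dom and at 83.9, 74.0 and 86.4 CPM in Spt6 (log2 fold change 3.83, SE 0.21, adjusted p 1.49e-12). LexA held 75.5, 99.4 and 93.1 CPM and overlapped with Spt6. Fas3 (2L, 18320102 to 18393441), an adhesion protein of the immunoglobulin superfamily, stood at 488, 750 and 618 CPM in dom and 51.3, 44.1 and 35.3 CPM in Spt6 (3.83, SE 0.31, adjusted p 4.01e-09). Mp, a collagen with an endostatin domain, stood at 1083, 1479 and 1260 CPM in dom, while Spt6 held 132, 55.8 and 54.5 CPM (3.99, SE 0.37, adjusted p 4.47e-08). In none of these 3 genes did a library of another group reach the lowest dom library. Arc1, whose protein forms virus-like capsids that carry its own RNA, stood at 849, 1533 and 1205 CPM in dom against 106, 156 and 98.5 CPM in Spt6 (3.31, SE 0.35, adjusted p 2.99e-07). Mettl3, the catalytic subunit of the N6-methyladenosine writer of messenger RNA, stood at 116, 158 and 160 CPM against 14.6, 16.4 and 12.5 CPM (3.32, SE 0.38, adjusted p 1.28e-06). St3, a sulfotransferase gene, had a log2 fold change of 3.36 (SE 0.32). It overlaps l(2)efl on the other strand over 3.3% of its exons.

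**Figure D3:**
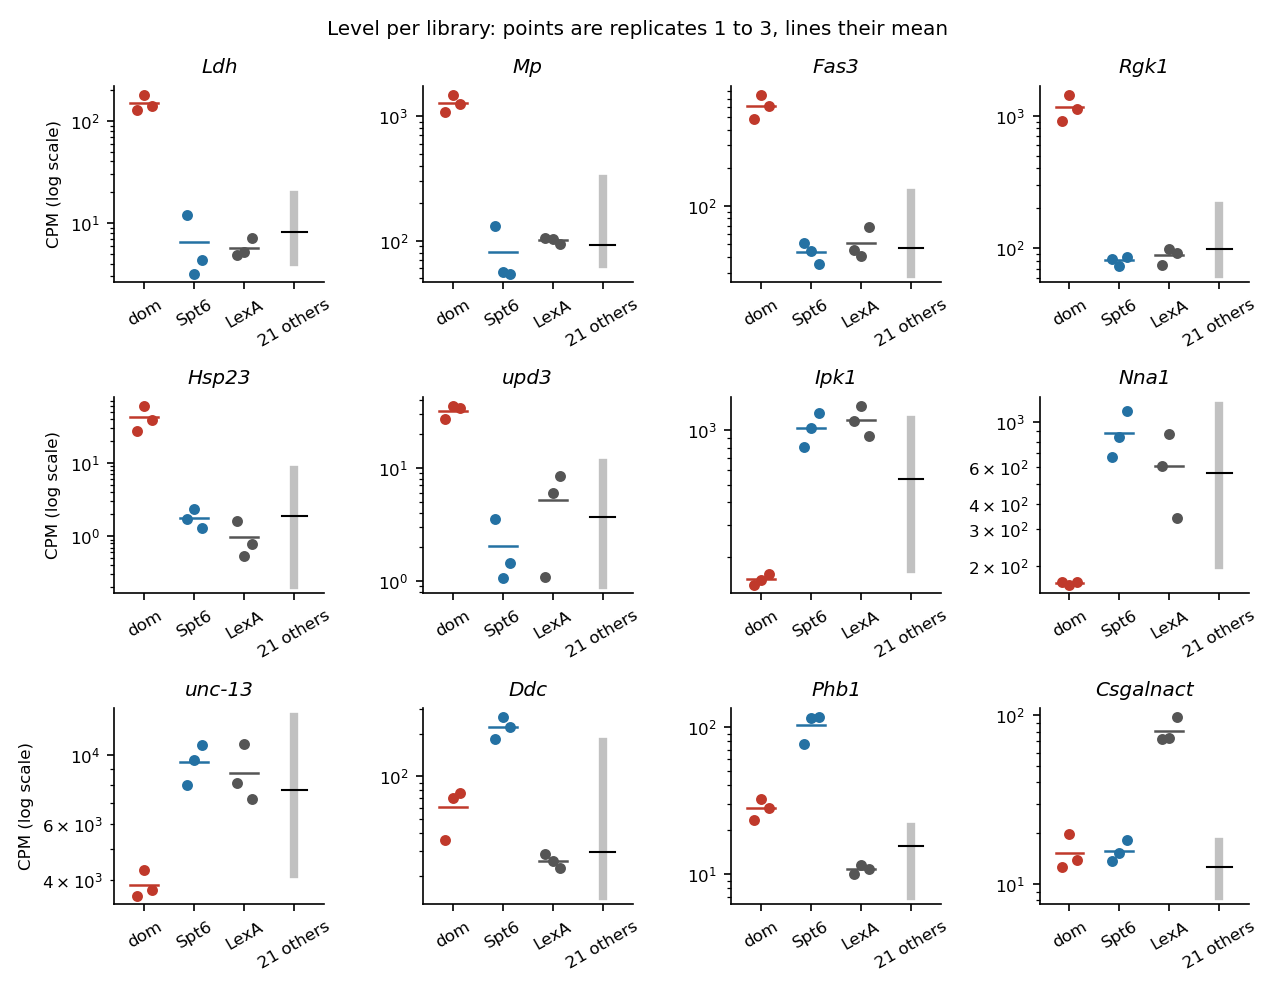
CPM on a log axis in each dom, Spt6 and LexA library (points are replicates, lines their means) for 12 genes, with the range (grey bar) and median (black line) of 21 libraries of 7 other knockdowns. Ldh, Mp, Fas3, Rgk1, Hsp23 and upd3 are high in dom, Ipk1, Nna1 and unc-13 are low in dom, Ddc and Phb1 are highest in Spt6, and Csgalnact is highest in LexA.

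Inducible heat shock genes were among those higher in dom. Counts for this and each later gene list stand beside shares of 4.83% higher and 5.86% lower over all genes tested. No list was tested as a set. The small heat shock proteins are chaperones that hold unfolded proteins in solution. Of 10 tested, 6 were called higher, none lower and 4 were not called, and the median log2 fold change was 1.44 (1.29 between the first replicates and 1.62 between the others). Hsp23 stood at 27.3, 60.3 and 39.1 CPM in dom and 1.69, 2.36 and 1.29 CPM in Spt6 (4.55, SE 0.62, adjusted p 1.37e-05). Hsp26 stood at 56.9, 117 and 77.8 CPM against 3.73, 0.988 and 11.9 CPM (3.89, SE 0.84, adjusted p 0.0027). Hsp27 (3.61, SE 0.85) and l(2)efl (1.72, SE 0.39) followed, and the call of Hsp27 was lost without Spt6 replicate 3 (adjusted p 0.0582). Other groups reached 29.6 CPM for Hsp27, above every dom library, and its mean was 17.3 CPM in Spt5 against 16.7 CPM in dom. In LexA, Hsp23 stood at 1.63, 0.531 and 0.789 CPM, so Spt6 and LexA overlapped there.

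Among 21 tested genes of the Hsp70 class, its partners and regulators, 5 were called higher and none lower, with a median of 0.53. The other 16 were not called, among them Hsp83 (1.13, adjusted p 0.11) and Hsc70-4, the main constitutive cytosolic form (0.42, adjusted p 0.32). The inducible Hsp70Ba stood at 65.6, 149 and 93.1 CPM in dom against 1.36, 4.26 and 8.98 CPM in Spt6 (4.33, SE 1.01, adjusted p 0.0055). Its near-identical copies Hsp70Bc (4.61, SE 1.1) and Hsp70Bbb (5.11, SE 1.38) can exchange reads with it, so the 3 values are not separate evidence. The call of Hsp70Bc was lost without Spt6 replicate 3 (adjusted p 0.0512). Hsp68 had a log2 fold change of 3.75 (SE 0.88). Unlike Ldh, the inducible genes were also high elsewhere: the 24 libraries of the other groups reached 138 CPM for Hsp70Ba and 151 CPM for Hsp68. The noncoding lncRNA:Hsromega, which nucleates nuclear omega speckles, stood at 17980, 28120 and 20770 CPM in dom and 5422, 3819 and 8424 CPM in Spt6 (1.92, SE 0.36, adjusted p 0.00066), and no other library passed 12230 CPM. Hsf, the heat shock transcription factor, was not called (-0.47, SE 0.19, adjusted p 0.1).

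Genes of damage and death signalling were also among those higher in dom. Of 24 tested, 6 were called higher and 1 lower. Gadd45, a stress sensor upstream of MAP kinases, stood at 32.9, 48.8 and 41.2 CPM in dom and 5.42, 6.69 and 6.15 CPM in Spt6 (2.74, SE 0.33, adjusted p 2.02e-06). The caspase inhibitor Diap1 (1.12, SE 0.21, adjusted p 0.00064) and hid (1.02, SE 0.26, adjusted p 0.012), which relieves that inhibition, were both called higher. For hid the call was lost without Spt6 replicate 3 (adjusted p 0.0784). Other groups reached 46.45 CPM for hid, above every dom library, and its mean was 35.2 CPM in Spt5 against 30.1 CPM in dom. tefu, the ATM kinase, was the member called lower (-0.71, SE 0.18, adjusted p 0.011). Its call was lost without any of 4 single libraries, Spt6 replicates 2 and 3 and dom replicates 2 and 3 (highest adjusted p 0.112).

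Of 46 immune genes, 5 were called higher in dom and 1 lower, beside 4.83% and 5.86% of all genes tested. upd3, a cytokine that signals through JAK and STAT, stood at 27.1, 35.3 and 33.8 CPM in dom, 3.56, 1.06 and 1.46 CPM in Spt6 and 1.08, 6.02 and 8.48 CPM in LexA (4.07, SE 0.64, adjusted p 9.73e-05). Dif, an NF-kappaB factor of the Toll pathway, stood at 227, 433 and 323 CPM against 81.0, 89.5 and 69.3 CPM (2.03, SE 0.42, adjusted p 0.0019). Rel, the NF-kappaB factor of the Imd pathway, was called (1.18, SE 0.32, adjusted p 0.017), though dom replicate 1 at 65.1 CPM lay within the Spt6 range of 55.8 to 73.0 CPM. The call of Rel was lost without Spt6 replicate 3, dom replicate 2 or dom replicate 3 (highest adjusted p 0.0915), and in a fit of the 6 libraries alone (0.0618). Its mean in Spt5 was 140 CPM, against 142 CPM in dom. The bomanin gene BomS6 went the other way and is described with the genes high in Spt6.

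Antioxidant genes had 3 of 34 members higher and none lower, beside 4.83% and 5.86% of all genes tested. Trx2, a thioredoxin, stood at 33.6, 68.4 and 62.0 CPM in dom against 17.8, 26.8 and 26.4 CPM in Spt6 (1.2, SE 0.23, adjusted p 0.0011). ref(2)P, the autophagy receptor that binds ubiquitinated cargo, stood at 163, 334 and 228 CPM against 74.7, 113 and 82.8 CPM (1.42, SE 0.29, adjusted p 0.0018). Other autophagy and lysosome genes were divided, with 3 of 27 higher and 4 lower. In the unfolded protein and integrated stress list, 4 of 22 were higher and 1 lower. Thor, the 4E-BP that restrains translation initiation, was among the former (1.25, SE 0.28, adjusted p 0.0041). Other groups reached 175 CPM for Thor, above every dom library, and its mean was 140 CPM in Cdk12 against 118 CPM in dom. Nmdmc, a mitochondrial folate enzyme, stood at 14.3 CPM in dom replicate 1 and 67.0 and 43.0 CPM in replicates 2 and 3, against 8.82 to 12.9 CPM in Spt6 (1.94, SE 0.48, adjusted p 0.0083). Its call was lost without Spt6 replicate 3 or dom replicate 2 (highest adjusted p 0.0609).

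Purine synthesis differed between the 2 classes of dom libraries. Gart stood at 70.1 CPM in dom replicate 1 and at 342 and 269 CPM in replicates 2 and 3, against 61.6 to 102 CPM in Spt6, so the groups overlapped (log2 fold change 1.48, SE 0.44, adjusted p 0.027). Pfas showed the same spread, at 65.9, 289 and 204 CPM against 51.0 to 77.4 CPM (1.59, SE 0.42, adjusted p 0.013). Both calls were lost without Spt6 replicate 3 or dom replicate 2 (highest adjusted p 0.16 and 0.0947), and that of Gart also without dom replicate 3. Neither was called in a fit of the 6 libraries alone (0.0963 for Gart, 0.0577 for Pfas). The mean of Gart in Spt5 was 205 CPM, against 227 CPM in dom. The list, with 2 of 14 called higher, had a median of -0.3 between the first replicates and 0.85 between the others.

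Among genes lower in dom, Ipk1 (2R, 20870791 to 20879145), an inositol phosphate kinase, had the largest decrease by the naming rule. It stood at 142, 151 and 163 CPM in dom, 803, 1028 and 1241 CPM in Spt6 and 1112, 1353 and 923 CPM in LexA, and the difference of dom minus Spt6 was -2.75 on the log2 scale (SE 0.37, adjusted p 1.14e-05). Nna1 (X), a carboxypeptidase that trims glutamates from tubulin, stood at 166, 162 and 168 CPM against 675, 838 and 1122 CPM (-2.41, SE 0.39, adjusted p 0.00012). LexA ran from 340 to 872 CPM, above all dom libraries. Cib2, a calcium- and integrin-binding protein encoded next to Ipk1, stood at 13.95, 18.7 and 13.6 CPM against 52.9, 81.3 and 98.1 CPM (-2.33, SE 0.38). stum, needed for mechanosensing in proprioceptive neurons (-2.28, SE 0.32), Dhc98D, an axonemal dynein heavy chain (-2.17, SE 0.38), and Oseg4, a protein of intraflagellar transport (-2.11, SE 0.33), were called lower. So were Ndae1, a sodium-driven anion exchanger (-2.03, SE 0.31), and Ekar, a kainate-type glutamate receptor on chromosome 4 (-2.03, SE 0.38). At Dhc98D the mean levels of Trl, Top1 and TH1 (70.8, 54.2 and 52.3 CPM) lay below that of dom (95.3 CPM). Against the 6 other knockdowns Dhc98D was higher in Spt6 (1.71, adjusted p 0.00013) and was not called in dom (-0.46, adjusted p 0.37).

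Presynaptic genes were lower in dom wherever they were called. Of 26 presynaptic genes, 6 were lower and none higher, with a median of -0.35. Lower calls were more frequent among genes of high level and great length. With tested genes cut into 5 bins by level, 19.38% were lower in the highest bin, against 5.86% of all. In the longest of 5 length bins of protein-coding genes, 13.96% were lower. Whether the presynaptic, ion channel, phototransduction, elongation factor or Polycomb lists exceed genes of like level and length was not tested. unc-13, which primes vesicles for fusion, stood at 3558, 4281 and 3705 CPM in dom, 7998, 9643 and 10740 CPM in Spt6 and 8124, 10870 and 7222 CPM in LexA, and dom minus Spt6 was -1.3 on the log2 scale (SE 0.25, adjusted p 0.0012). The highest dom library lay just above the lowest of the 24 libraries of other groups, at 4168 CPM. Of the exon bases of unc-13, 25.6% overlap another gene on the other strand. The presynaptic calcium channel cac stood at 820, 996 and 899 CPM against 1665, 1813 and 2442 CPM (-1.12, SE 0.23, adjusted p 0.0016), and Rbp, which tethers it at the active zone, had -1.06 (SE 0.23, adjusted p 0.0036). Syt7, a calcium sensor, followed (-0.94, SE 0.21), and its call was lost without Spt6 replicate 3 (adjusted p 0.0658).

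Ion channel genes had 5 of 25 lower and none higher, though their median of 0.2 lay near that of all genes. sei, the fly ERG potassium channel, stood at 31.3, 36.6 and 35.1 CPM in dom against 88.1, 97.5 and 123 CPM in Spt6 (-1.58, SE 0.18, adjusted p 1.25e-06). Ca-alpha1D, the L-type calcium channel, stood at 1596, 2091 and 1884 CPM against 5678, 7392 and 9199 CPM (-2.0, SE 0.36, adjusted p 0.00048). The calcium-activated potassium channel slo had -1.02 (SE 0.27, adjusted p 0.014), and without Spt6 replicate 3, dom replicate 2 or dom replicate 3 it was not called (highest adjusted p 0.133). Among the other groups slo fell to 1746 CPM, below every dom library (1894 to 2121 CPM).

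Histamine is the transmitter of fly photoreceptors, and its genes split. Of 8 tested, 2 were higher in dom and 3 lower. CarT, the transporter that returns carcinine to photoreceptors for recycling, stood at 556, 943 and 797 CPM in dom against 184, 292 and 380 CPM in Spt6 and 320, 331 and 403 CPM in LexA (1.42, SE 0.32, adjusted p 0.0041). Hdc, the histidine decarboxylase that makes histamine, stood at 103, 116 and 123 CPM against 197, 224 and 401 CPM (-1.27, SE 0.31, adjusted p 0.0088). HisCl1, a histamine-gated chloride channel, had -1.19 (SE 0.27, adjusted p 0.0046). The calls of Hdc and HisCl1 were lost without Spt6 replicate 3 (adjusted p 0.133 and 0.0674). Low levels also occurred elsewhere. Among the other groups Hdc fell to 64.4 CPM and HisCl1 to 22.25 CPM, below every dom library, and the Spt5 mean of Hdc was 123.5 CPM. Balat was the second gene called higher (1.53, SE 0.5), but 98.5% of its exons overlap another gene on the other strand, so its reads are uncertain.

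In phototransduction, 4 of 35 genes were lower in dom and none higher, with a median of -0.27. Over all genes tested 5.86% were lower, and 19.38% in the fifth of highest level. Gprk1, a receptor kinase, stood at 133, 155 and 147 CPM in dom against 252, 196 and 290 CPM in Spt6 (-0.76, SE 0.19, adjusted p 0.0097). rdgC, the rhodopsin phosphatase, had -1.27 (SE 0.35, adjusted p 0.02) and Galphaq, the G protein of the cascade, -0.92 (SE 0.3, adjusted p 0.046). Among the other groups rdgC fell to 326 CPM and Galphaq to 108 CPM, below every dom library. The call of Gprk1 was lost without Spt6 replicate 3 or dom replicate 3, and those of rdgC and Galphaq in 5 of 6 fits that left out 1 library (highest adjusted p 0.0985, 0.153 and 0.337), and 44.1% of the exons of Galphaq overlap another gene on its own strand. The fourth, ninaA, a chaperone of Rh1, lies whole within the other strand of CG15824, a gene that is high in Spt6, so its reads cannot be assigned, and its call was lost in 4 of 6 such fits (highest adjusted p 0.102). Rhabdomere and polarity genes were called both ways, 5 of 24 higher and 4 lower. The spectrin kst stood at 827, 1137 and 970 CPM in dom against 2110, 2927 and 3314 CPM (-1.51, SE 0.28, adjusted p 0.00061). Act5C, a cytoplasmic actin, was higher, at 433, 897 and 655 CPM against 188, 316 and 215 CPM (1.46, SE 0.32, adjusted p 0.0029).

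Of 19 genes of the Tip60 and Domino complexes, 1 was called, Yeti, at 43.1, 66.1 and 56.0 CPM in dom against 76.4, 92.7 and 96.2 CPM in Spt6 (-0.68, SE 0.2, adjusted p 0.024). Its call was lost in 4 of 6 fits that left out 1 library (highest adjusted p 0.135), and the list median was -0.05. His2Av, the exchanged histone variant, stood at 25.9, 34.1 and 29.2 CPM against 29.3, 24.6 and 34.1 CPM (0.02, SE 0.18, adjusted p 0.96), with a full overlap of the groups. Tip60 itself was not called (0.58, SE 0.2, adjusted p 0.058).

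Among 37 elongation factors and histone chaperones, the family of Spt6, 8 were lower in dom and 1 higher, with a median of -0.25. Eaf and lilli, of the super elongation complex, had log2 fold changes of -0.91 (SE 0.17, adjusted p 0.00082) and -0.94 (SE 0.21, adjusted p 0.0031). For Eaf the values were 45.4, 73.0 and 64.2 CPM in dom and 102, 116 and 126 CPM in Spt6. Ssrp, a subunit of the histone chaperone FACT, was the gene called higher, at 16.4, 27.8 and 24.7 CPM against 12.4, 12.9 and 10.5 CPM (0.95, SE 0.25, adjusted p 0.013). The call of Ssrp was lost without Spt6 replicate 3 (adjusted p 0.101). Other remodellers had 2 of 20 lower, among them Acf of the ISWI complexes (-1.05, SE 0.19, adjusted p 0.0006). Polycomb and trithorax genes had 5 of 20 lower and none higher, with a median of -0.4. Su(z)2, a component of Polycomb repressive complex 1, stood at 88.2, 112 and 119 CPM against 198, 238 and 281 CPM (-1.17, SE 0.18, adjusted p 8.49e-05), while LexA held 198 to 222 CPM. The homeotic genes that Polycomb silences had none of 16 called. Their median was 0.62, but it was 0.001 between the first replicates and 0.758 between the other libraries. The median over all genes reached 1.28 in the fifth of lowest level, and homeotic genes were not compared with genes of like level.

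Clock genes were called in opposite directions. per, which represses its own activators, stood at 449, 803 and 631 CPM in dom, 71.7, 78.5 and 161 CPM in Spt6 and 382, 145 and 265 CPM in LexA (2.59, SE 0.84, adjusted p 0.044). The repressor cwo stood at 170, 260 and 212 CPM against 42.2, 33.2 and 36.4 CPM (2.53, SE 0.76, adjusted p 0.03). cyc, an activator, was lower, at 7.43, 17.0 and 18.4 CPM against 24.4, 32.2 and 39.8 CPM (-1.17, SE 0.24, adjusted p 0.002). The call of per was lost without any 1 of the 6 libraries and that of cwo in 4 of 6 such fits (highest adjusted p 0.143 and 0.131), and neither was called with both first replicates left out (0.112 and 0.0654). Other groups reached 1273 CPM for per and 783 CPM for cwo, above every dom library. Hour of sampling was not analysed here.

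**Figure D4:**
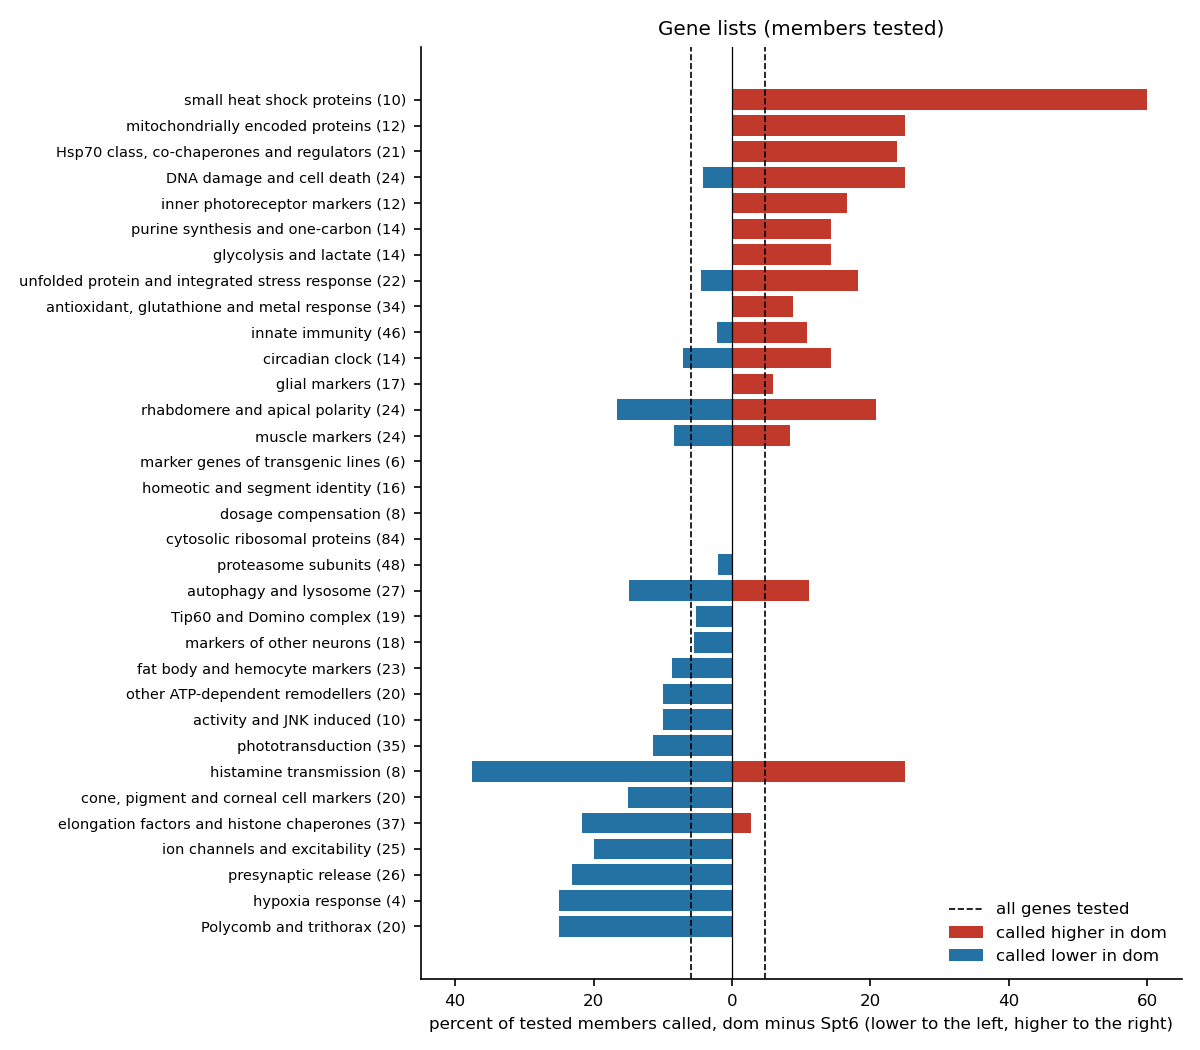
Percent of the tested members of each gene list that were called higher (red, to the right) or lower (blue, to the left) in dom than in Spt6, with the number tested in brackets. Dashed lines mark the share among all genes tested, 4.83% higher and 5.86% lower. Small heat shock proteins reach furthest to the right, with 6 of 10 called.

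In the remaining lists the shares called varied. None of 84 ribosomal protein genes, 8 dosage compensation genes or 6 marker genes of transgenic lines was called, and 1 of 48 proteasome genes was lower. One of 10 activity and JNK induced genes and 1 of 4 hypoxia genes were lower. Mitochondrially encoded genes had 3 of 12 higher with a median of 1, but the call of each was lost in some fit that left out 1 library. Glial markers had 1 of 17 called, higher, and other neurons 1 of 18, lower. Inner photoreceptors had 2 of 12 higher, muscle 2 of 24 higher and 2 lower, cone and pigment cells 3 of 20 lower, and fat body and hemocytes 2 of 23 lower. Summed marker levels overlapped between dom and Spt6 for glia (593 to 1057 and 791 to 998 CPM), other neurons (540 to 816 and 689 to 852 CPM, with LexA lower at 411 to 508 CPM) and muscle (6486 to 8948 and 6948 to 8361 CPM). They did not overlap for fat body markers, at 1578 to 2262 CPM in dom and 2552 to 3664 CPM in Spt6, nor for cone and pigment cell markers, at 770 to 1050 CPM and 1153 to 1516 CPM. Single genes weighed on the cone and pigment cell sums. The called member g of that list stood at 199, 238 and 233 CPM in dom and 384, 429 and 641 CPM in Spt6. The part of marker levels in the results was not tested. In bulk nuclei, fewer cells of a type and less RNA per cell cannot be told apart.

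A small set of genes was high in Spt6 and not, or less, in dom. Ddc (2L, 19116483 to 19120306), the decarboxylase that makes dopamine and serotonin, stood at 183, 262 and 223 CPM in Spt6, 35.4, 70.4 and 76.5 CPM in dom and 28.5, 25.3 and 22.5 CPM in LexA. Its log2 fold change of dom minus Spt6 was -1.87 (SE 0.46, adjusted p 0.0083), and that of Spt6 minus LexA was 3.13 (adjusted p 0.0014). Among the other groups Ddc reached 174 CPM, and its mean in Spt5 was 107 CPM, above the dom libraries. Phb1 (2L, 19121345 to 19123869), a prohibitin of the inner mitochondrial membrane encoded 1.04 kb further along, stood at 76.8, 114 and 117 CPM in Spt6, 23.3, 32.5 and 28.1 CPM in dom and 9.93, 11.5 and 10.9 CPM in LexA (dom minus Spt6 -1.88, SE 0.24, adjusted p 5.43e-06). Phb1 and the other genes of this paragraph outside the lists were chosen after their values were seen. In both genes dom lay between Spt6 and LexA.

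BomS6, a secreted peptide induced by the Toll pathway, stood at 27.1, 31.0 and 23.6 CPM in Spt6, 3.95, 5.9 and 10.95 CPM in dom and 5.6, 4.96 and 8.48 CPM in LexA (-1.97, SE 0.39, adjusted p 0.0013). Among the other groups it reached 55.4 CPM, so a high level of BomS6 also occurred elsewhere. Rgk2, a relative of Rgk1, was higher in Spt6 (44.4, 47.1 and 53.4 CPM) than in dom (21.5, 18.8 and 21.1 CPM), opposite in sign to Rgk1 (-1.24, SE 0.34, adjusted p 0.017). Lsp2, a storage protein of the fat body, also had a negative value (-1.58, SE 0.37), but 84.6% of its exons overlap another gene on the other strand, and its call was lost without Spt6 replicate 2 (adjusted p 0.0526). FMRFaR, a neuropeptide receptor, was the reverse case, with Spt6 at 4.41, 2.81 and 2.83 CPM, LexA at 7.4, 11.7 and 7.89 CPM and dom at 12.6, 15.9 and 15.1 CPM (2.14, SE 0.26, adjusted p 3.25e-06).

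The second question was what dom and Spt6 share against LexA. The mean of both minus LexA called 82 genes higher (0.551%) and 50 lower (0.336%). A large change in dom alone can produce such a call: Rgk1 was called in it (1.78, SE 0.18, adjusted p 3.66e-07) although Spt6 minus LexA was -0.13. A gene was therefore counted as shared only if all 6 libraries lay beyond every LexA library, both groups had the same sign, and the 95% interval of dom minus Spt6 lay within 1 log2 unit of 0. Of the 132 called genes, 57 met the first condition, and 18 met all, 8 of them higher and 10 lower. All 18 were called in dom minus LexA, but only 3 of them, Csgalnact, Mbs and Pex7, were called in Spt6 minus LexA. The summed markers of other neurons, described above, did not overlap between LexA and either group, and their part in these calls was not tested. For Spt6, 1 member of that list, Ddc, made up 182.5, 262.2 and 223.0 CPM of sums of 779.1, 851.8 and 689.3 CPM. Its LexA values were only 22.5 to 28.5 CPM. Sums without Ddc were not computed, so a shift of the list as a whole is not shown for Spt6. Single libraries weighed on the counts of called and shared genes. The 132 became 62, 41 and 82 without LexA replicates 1, 2 and 3 and 216 without dom replicate 1, and the 18 became 9 without Spt6 replicate 2 and 10 without dom replicate 2 or dom replicate 3.

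Csgalnact, a transferase that starts chondroitin chains, had the largest shared decrease. It stood at 12.6, 19.7 and 13.8 CPM in dom, 13.7, 15.2 and 18.3 CPM in Spt6 and 72.8, 73.2 and 97.8 CPM in LexA. The mean of both groups minus LexA was -2.38 (SE 0.19, adjusted p 4.54e-09), and dom and Spt6 differed by -0.04 (SE 0.23). Mbs, the targeting subunit of myosin phosphatase, stood at 272, 377 and 362 CPM in dom, 403, 433 and 552 CPM in Spt6 and 1013, 964 and 798 CPM in LexA (-1.23, SE 0.15, adjusted p 6.15e-06). CrebA, a transcription factor of secretory genes (-1.1, SE 0.24), and CkIIbeta, the regulatory subunit of casein kinase II (-0.82, SE 0.16), had negative values in both groups but were not called in Spt6 minus LexA (adjusted p 0.33 and 0.42). For osp (-0.79, SE 0.15) the groups themselves differed (-0.57, SE 0.18, adjusted p 0.034).

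Pex7, the receptor that imports enzymes into peroxisomes, had the largest shared increase after CG43092, a gene with no assigned name (1.98, SE 0.45, adjusted p 0.025). It stood at 27.7, 39.3 and 39.7 CPM in dom, 32.4, 51.9 and 43.1 CPM in Spt6 and 13.2, 12.8 and 10.5 CPM in LexA (1.68, SE 0.29, adjusted p 0.0018). GstO3, an omega-class glutathione transferase, stood at 7.98, 12.5 and 12.4 CPM, 8.98, 15.8 and 14.8 CPM and 3.97, 3.9 and 6.12 CPM (1.38, SE 0.3, adjusted p 0.018). Obp56e, an odorant-binding protein, had 1.68 (SE 0.41), with 84.4% of its exons overlapped on the other strand. The calls of Csgalnact, Mbs and Pex7 held when any 1 of the 9 libraries was left out, and those of the other 9 shared genes in the naming rule did not in at least 1 such fit. The calls of CrebA, GstO3 and Obp56e were lost in 5, 2 and 6 of 9 fits (highest adjusted p 0.111, 0.214 and 0.328), and those of CkIIbeta and osp without LexA replicate 2 (0.0834 and 0.0518).

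At most of the lower shared genes, the other knockdowns were on the side of dom and Spt6. The mean of the 6 other knockdowns lay nearer to dom and Spt6 than to LexA at 9 of the 10 lower shared genes and at 4 of the 8 higher ones. Over all genes called in the mean of both minus LexA, this held at 29 of the 50 lower and 8 of the 82 higher genes. For Csgalnact, the 21 libraries of other knockdowns ran from 8.55 to 17.8 CPM, and for Mbs from 288 to 522 CPM, so the 3 LexA libraries lay above all 27 others at both genes, as they did at CkIIbeta. At GstO3 the 21 libraries had a median of 9.79 CPM, within the range of dom and Spt6. Pex7 behaved differently. Its 21 other libraries ran from 2.69 to 18.5 CPM, below every dom and Spt6 library, and it was called against the 6 other knockdowns in dom (1.45, adjusted p 8.6e-06) and in Spt6 (1.71, adjusted p 9.51e-06). It was the only one of the 18 genes for which both of those comparisons were called. Several others were called against the 6 knockdowns in dom only, among them rdo (0.76, adjusted p 0.013) and bi (-0.79, adjusted p 9.93e-05).

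**Figure D5:**
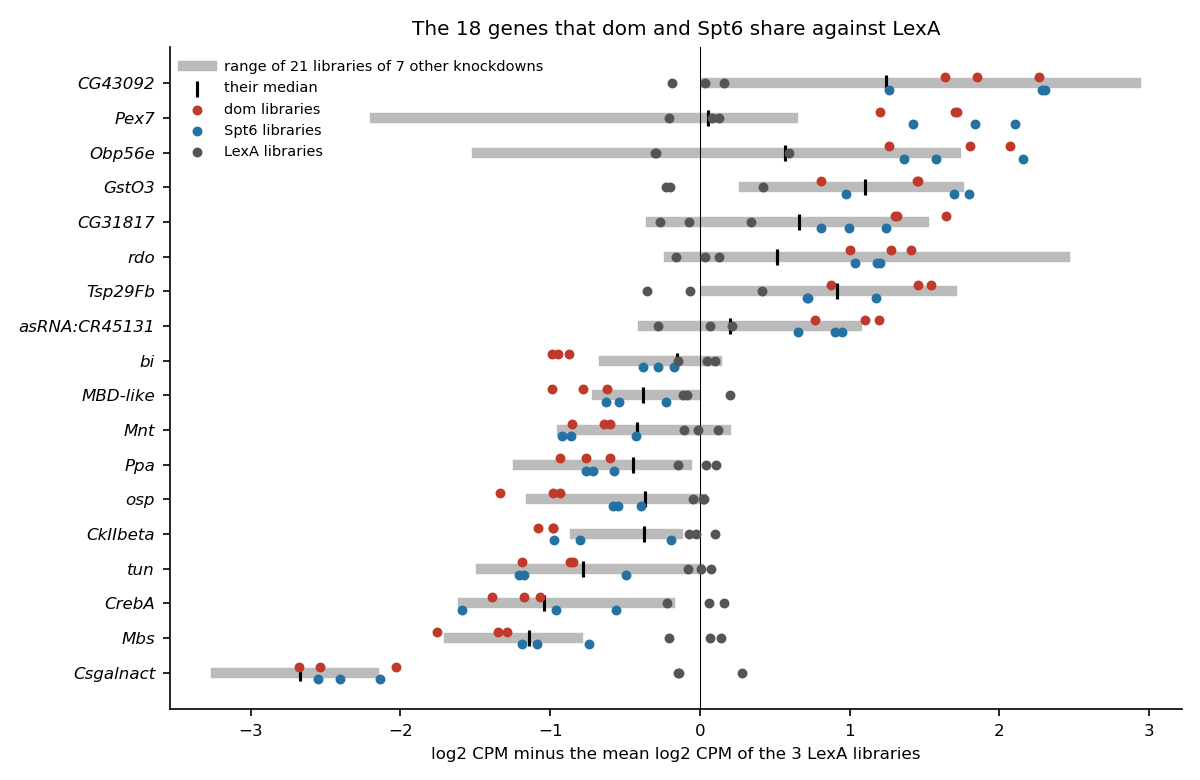
The 18 genes that dom and Spt6 share against LexA, with log2 CPM relative to the mean of the LexA libraries on the horizontal axis. Red, blue and dark grey points are dom, Spt6 and LexA libraries, and light grey bars with a tick are the range and median of 21 libraries of other knockdowns. At Csgalnact and Mbs the bar lies with dom and Spt6, and at Pex7 it lies with LexA.

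Without reference to LexA alone, genes were sought at which all 6 dom and Spt6 libraries lay beyond all 24 other libraries. There were 6 above and 0 below, which is 0.0403% and 0% of the genes tested, and these genes were chosen after the values were seen. They were CG4291, CG15824, Phb1, Pex7, elfless and e(y)2b. CG4291 (2L, 851251 to 852730) stood at 227, 377 and 327 CPM in dom and 68.6, 83.9 and 75.2 CPM in Spt6, while the other 24 libraries ran from 4.3 to 12.2 CPM. CG15824 (2L, 877172 to 885141) had the opposite order, at 72.9, 84.1 and 79.0 CPM in dom and 164, 212 and 180 CPM in Spt6, and the others ran from 1.85 to 10.9 CPM. Both groups were thus far from the remaining libraries at these genes while also differing from each other, by 2.03 (SE 0.21, adjusted p 2.46e-07) at CG4291 and by -1.24 (SE 0.31, adjusted p 0.0087) at CG15824. The 2 genes lie 24.4 kb apart.

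Several genes of these small sets sit beside one another. Among 39 genes called in Spt6 minus LexA, shared against LexA, or beyond all other libraries in Spt6 or in both groups, 7 successive pairs lay within 150 kb, a window set after the positions were seen. How many such pairs 39 genes drawn from all those tested would give was not computed. Besides CG4291 with CG15824 and Ddc with Phb1, elfless lies 0.9 kb from rdo on 2L, and Csgalnact lies 1.19 kb from CG12911 on 2R. CG12911 stood at 69.1, 61.3 and 90.7 CPM in LexA, 6.61, 5.02 and 3.54 CPM in dom and 2.54, 3.35 and 2.35 CPM in Spt6. LexA was highest at both neighbours, but dom lay above Spt6 only at CG12911, as the groups overlapped at Csgalnact. GstO3 and Pex7 lie 127 kb apart on 3L. Genetic background of the fly lines is not given by the labels, and its part in these levels was not tested.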

How the data were processed

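Nuclear RNA was sequenced from 30 libraries in 10 groups of 3, made from 10 ng of RNA each after DNase I treatment and depletion of ribosomal RNA, per the labels' protocols. The deposited values are raw counts of reads per gene. The authors' tools were Trimmomatic 0.39, HISAT2 and HTSeq with the genome build BDGP6, per the submitters' processing notes. The strand setting and the annotation release used for counting are not given in the sources used here, so overlapping genes cannot be told apart. Each file held 17807 gene rows, of which 17710 had a symbol and position in an annotation of release 115, and 5 summary rows, which took 51.8% to 74.6% of reads and were left out.

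Counts were fitted in edgeR 4.0.16 (R 4.3.3, limma 3.58.1) by the quasi-likelihood method over all 30 libraries, with 1 coefficient per group. A gene needed a minimum count of 10 and a total of 15, and library sizes were normalized by edgeR's TMM. Standard errors come from the fold change and its F statistic, p-values were adjusted by Benjamini and Hochberg's method, and log2 CPM used a prior count of 2. Tests were two-sided and were checked on simulated counts. Named genes are the targets and ninaE, the 10 largest changes in each direction among called genes with groups apart and an average log2 CPM of at least 3, up to 4 called members of each of 33 gene lists by adjusted p, and up to 8 shared genes in each direction. Bare CG and CR numbers and noncoding RNAs outside the lists were passed over by this rule. Further genes in the text, such as Rgk2, FMRFaR, CG12911, tej and those beyond all other libraries, were chosen after their values were seen. Of the listed symbols 20 were matched by a synonym and 11 matched no row. Members and lists were chosen with earlier results of these data known. Other fits used DESeq2 1.42.0, its size factors, no filter, only the libraries of a contrast, a background covariate, a replicate block, and the leaving out of libraries.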

Additional observations from a re-analysis of the deposited data

How the results depend on the processing

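The 1591 genes called between dom and Spt6 numbered 2590 with DESeq2's Wald test and 2505 with a background covariate, and both of these sets held all 1591. Leaving out 1 library gave 593 (without Spt6 replicate 3) to 3300 (without Spt6 replicate 1). The balance of higher and lower calls, 719 and 872, depended on the setting. It moved to 591 and 1509 with no filter, to 555 and 1111 with the 6 libraries alone, and to 1146 and 830 without the Spt5 and Cdk12 libraries, an alternative chosen after seeing the data. Higher calls outnumbered lower ones there, with the covariate (1266 and 1239), and without Spt6 replicate 1 (2343 and 957), 2 (472 and 418) or 3 (328 and 265) or dom replicate 2 (570 and 531) or 3 (526 and 405). The median of all genes moved from 0.28 to 0.077 with the 6 libraries alone and to 0.557 without Spt6 replicate 1. The 132 genes of both groups minus LexA, and the 18 shared genes, numbered 314 and 50 with DESeq2's size factors, 843 and 124 with its Wald test, 376 and 66 with the 9 libraries alone, 404 and 75 with the covariate, and 410 and 72 without Spt5 and Cdk12. The balance of 82 higher and 50 lower turned to 135 and 179 with DESeq2's size factors, 358 and 485 with its Wald test, 164 and 212 with the 9 libraries alone and 83 and 95 without Spt6 replicate 3. With both first replicates left out, also chosen after seeing the data, the 132 became 278, and the 18 shared genes (8 higher, 10 lower) became 21 (17 and 4), of which 6 were among the 18. Leaving out 1 of the 9 libraries gave 41 to 216 genes of both groups minus LexA. The shared genes numbered 9 to 22 without 1 dom or Spt6 library, and were not counted without a LexA library. Of the 12 named shared genes, 9 lost their call without LexA replicate 2, and 5 without LexA replicate 1 or replicate 3. The median position of LexA ran from 0.094 to 0.41. The cause of these shifts was not tested. Replicate numbers paired dom and Spt6 only in part. For this, each library's deviation from the mean log2 CPM of its own group was correlated between groups over 6492 genes. The same-number correlations of these deviations were 0.44, 0.57 and -0.22. Between the deviations of dom replicate 1 and Spt6 replicate 2 it was -0.58, and between those of dom replicate 2 and Spt6 replicate 1 -0.57. Deviations cancel out within a group, so some negative values follow from the calculation. The main fit held no replicate block. A replicate block gave 1746, 155 and 19 genes. No named gene that was called changed sign under these alternatives. Of 99 named genes called between dom and Spt6, 50 were called whichever library was left out and 49 were not. The largest number lost to 1 library was 46, without Spt6 replicate 3.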

Other observations

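Calls between dom and Spt6 were unevenly spread over gene length and level. Protein-coding genes were cut by length into 5 equal bins, and all tested genes by level into 5. In the bin of longest genes 8.79% were higher in dom and 13.96% lower, against 3.22% and 1.91% in that of the shortest. At the highest level 19.38% were lower in dom, against 0.1% at the lowest. Chromosome 4, a small heterochromatin-rich chromosome, had 21 of 105 tested genes lower in dom and 8 higher. On the Y chromosome none of 49 tested genes was called, although their median log2 fold change was 1.04. These are counts on the same libraries that gave the calls, and level, length and chromosome were not separated.

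Called genes that adjoin one another formed 35 runs of at least 3 genes in 1 direction. How many runs 719 higher and 872 lower calls among 14888 genes would give without clustering was not computed. One higher run on 2R, from 14355769 to 14362825, held CG8617, Arc1, CR10102 and Arc2, so both Arc genes, which descend from retrotransposon Gag, were higher in dom (log2 fold changes 2.28 to 3.34 over the run). Another on X ended at per, from 2680199 to 2692780, with HLH3B, CG2652 and lncRNA:CR44470. The longest lower run, on 3R from 11781131 to 11819420, held prd1, HisCl1, Sbf, ClC-a and glo. Without a stated strand setting, reads of overlapping neighbours cannot be assigned to 1 gene. Tejas (tej), a Tudor-domain protein of the germline piRNA pathway in flies, stood at 79.3, 97.2 and 75.5 CPM in dom, 29.8, 32.1 and 33.1 CPM in Spt6 and 6.86, 1.59 and 4.34 CPM in LexA.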
